A study of Mus musculus with 18 samples.

Results

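The genes described here are 8 regulators and markers of the naive and memory states of T cells: Tcf7, Lef1, Id3, Bach2, Foxo1, Satb1, Myb and Dapl1. They were chosen by name, with earlier results of these data known, and are 8 of the 24537 genes in a table of raw read counts per gene. All 8 had enough counts to be tested, as had 11651 genes in all. RNA was sequenced from mouse CD8+ T cells, isolated in the naive state, treated with a CRISPR ribonucleoprotein and then activated with antibodies to CD3 and CD28. Cells labelled WT had received a scrambled control guide, and cells labelled Nur77-KO (KO here) a guide kit against Nur77, the nuclear receptor encoded by Nr4a1. Each was then kept overnight without lithocholic acid (control), with 10 µM (LCA10) or with 50 µM (LCA50). Lithocholic acid (LCA) is a bile acid that gut bacteria form from a primary one. The 6 groups were WT control, WT LCA10, WT LCA50, KO control, KO LCA10 and KO LCA50, with 3 libraries each. All 6 shared the naive start, the exposure to a ribonucleoprotein and the activation, so no group held unstimulated cells or cells without a ribonucleoprotein. The sources used here do not give the strain, sex or age of the mice, the guide sequence or the share of cells edited. The question was how LCA acts on CD8+ T cells that have or lack Nur77.

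Libraries held 4113713 to 5945518 counts. Nr4a1, the targeted gene, had 29 to 84 counts per library, and its change in KO against WT averaged over doses was -0.16 ± 0.19 (log2 fold change ± SE, adjusted p = 0.789), so gene counts do not show the edit. A guide's small edits need not lower a transcript's count. Summed CPM (read counts scaled to a common library size) of the CD8 T cell markers ran from 3568 to 4774. The lowest sum was that of KO LCA50 replicate 1. Cd4 reached at most 1.29 CPM. Foxp3, a regulatory T cell marker, ran from 9.16 to 18.9 CPM. The 5 CD4 and regulatory T cell markers, Cd4, Foxp3 and Zbtb7b included, summed to at most 37.7 CPM, in KO LCA50 replicate 1. Of these 5, Zbtb7b had the widest range over the libraries, from 0.195 CPM to above the highest Foxp3 level. Summed CPM of 7 B cell markers ran from 50.5 to 125 in KO LCA50, highest in replicate 1, and reached at most 69.1 in any other group. Cd74 alone reached 119 CPM, also in KO LCA50 replicate 1. The part of such cells in these results was not tested. The libraries WT LCA50 replicate 3 and KO LCA50 replicate 1 had the highest library background, measured as the summed CPM of 1477 olfactory, vomeronasal and trace amine receptor genes that fell below the count filter. It was 224 and 166 CPM in them and 47.8 to 140 CPM in the other 16 libraries. KO LCA50 replicate 1 also stood apart from its group in several of the 8 genes, and the values it moved most are given with and without it. It differed from the other libraries of its group by 7.79 and 8.19 times counting error (chi-square per degree of freedom). All other pairs of libraries within a group differed by 2.41 to 5.01. Nothing in the labels says that replicates came from separate mice or cultures, so p-values reflect only how far these libraries scatter, and that scatter may be technical.

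T cells that have not met antigen, and the memory cells that later resemble them, hold their state through a small set of DNA-binding proteins. TCF-1 (from Tcf7) and LEF-1 (from Lef1) are related high-mobility-group factors that bind the same motif and can pair with beta-catenin or with Groucho-type corepressors. FOXO1 is a forkhead factor that drives homing and survival genes such as Il7r, Klf2 and Ccr7 and is sent out of the nucleus when AKT is active. ID3 blocks E proteins by binding them without binding DNA, BACH2 is a repressor that competes with AP-1 factors, SATB1 organises chromatin in T cells, and MYB maintains stem-like T cells. Dapl1, a relative of the death-associated protein gene Dap, encodes a small protein that is not a transcription factor and is found in naive and memory-like CD8 T cells. Several of these genes, Tcf7 and Lef1 among them, generally fall as CD8 T cells become effectors.

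Below are the 250 bases before 4 RefSeq transcription starts (build GRCm38.p6), read 5′ to 3′ on the gene's strand. Dapl1, Id3, Tcf7 and Lef1 are shown because the main differences between groups concern them. Capitals mark matches to the motifs searched that lie wholly before the start. A TAACNG match that runs across the start, in the Dapl1 and in the Lef1 stretch shown, is left in small letters. Of the 16 RefSeq starts of the 8 genes, Dapl1 and Id3 have 1 each. For Tcf7 the second of 2 starts is shown and for Lef1 the fourth of 4, since those hold the NR4A and TCF/LEF letters, and both lie inside their genes.
Dapl1, chr2:59484403-59484652, plus strand, capitals GTAAACA (the core letters of FOXO motifs) at 164 bases before the start: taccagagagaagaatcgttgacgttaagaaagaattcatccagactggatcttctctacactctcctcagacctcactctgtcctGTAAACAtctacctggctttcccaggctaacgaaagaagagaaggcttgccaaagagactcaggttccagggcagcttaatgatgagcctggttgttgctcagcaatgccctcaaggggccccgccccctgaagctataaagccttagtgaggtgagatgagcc
Id3, chr4:136143572-136143821, plus strand, capitals the reverse complement of TAACNG (MYB) at 148 bases before the start: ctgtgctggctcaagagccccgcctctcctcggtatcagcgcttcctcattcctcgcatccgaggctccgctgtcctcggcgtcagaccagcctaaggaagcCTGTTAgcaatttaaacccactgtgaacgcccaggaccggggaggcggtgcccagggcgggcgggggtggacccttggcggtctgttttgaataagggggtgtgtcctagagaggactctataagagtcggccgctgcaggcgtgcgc
Tcf7, chr11:52282596-52282845, minus strand, capitals the reverse complement of AAGGTCA (bound by NR4A receptors) at 13 bases before the start: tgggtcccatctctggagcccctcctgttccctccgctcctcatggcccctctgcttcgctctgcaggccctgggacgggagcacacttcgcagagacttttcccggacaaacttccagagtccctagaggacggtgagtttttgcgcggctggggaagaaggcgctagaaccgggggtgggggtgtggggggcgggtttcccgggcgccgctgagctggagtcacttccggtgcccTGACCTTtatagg
Lef1, chr3:131156044-131156293, plus strand, capitals the reverse complement of CTTTGA (TCF and LEF) at 180 and 120 bases before the start: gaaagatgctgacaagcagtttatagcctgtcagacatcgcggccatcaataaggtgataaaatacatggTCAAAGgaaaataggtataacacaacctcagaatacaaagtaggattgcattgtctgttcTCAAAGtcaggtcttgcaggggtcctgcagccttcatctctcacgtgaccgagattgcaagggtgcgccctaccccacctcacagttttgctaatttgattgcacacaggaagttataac

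Both strands of 300 bases (250 before to 50 after each start) were searched for 6 motifs, and no match overlapped another. Some starts of Lef1 and Satb1 lie so close together that their windows share letters. AAGGTCA was held by 4.72% of the 32851 RefSeq promoters of that length and, among the 16 starts, by the second Tcf7 start. GTAAACA was held by 3.65% of all promoters and by 3 of the 16 starts, 1 each in Dapl1, Tcf7 and Myb. CTTTGA was held by 16% of all and by the fourth Lef1 start and the Bach2 start. TAACNG was held by 23.3% of all and by 8 of the 16, and CAGGTG, an E box of the kind E proteins bind, by 20.2% of all and by 4 of the 16. TGANTCA, the AP-1 and BACH motif, was held by 7.81% of all and was not among the letters of the 16. These matches describe the letters in these windows and no binding was measured.

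All 8 are protein-coding genes. On GRCm38 (GENCODE M21), Tcf7 lies at chr11:52252371-52283014 on the minus strand, Lef1 at chr3:131110471-131224356 (plus), Id3 at chr4:136143497-136145755 (plus) and Bach2 at chr4:32238804-32586108 (plus). Foxo1 lies at chr3:52268336-52353221 (plus), Satb1 at chr17:51736187-51833290 (minus), Myb at chr10:21124935-21160984 (minus) and Dapl1 at chr2:59484653-59505020 (plus).

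Compared per length of gene (CPM per kb of merged exons, GENCODE M21 on GRCm38), Tcf7 was the most abundant of the 8 transcripts in every group. Over all 18 libraries it stood at 125 CPM per kb, followed by Id3 at 43.9, Dapl1 at 35.2, Satb1 at 32.9, Lef1 at 17.2, Foxo1 at 15.2, Myb at 7.60 and Bach2 at 4.93. Merged exon length ran from 0.679 kb for Dapl1 to 19.027 kb for Satb1, and a gene that uses only some of its exons in these cells is placed too low on this scale. Dapl1 changed its place most. In WT control it was the second highest, at 74.3 ± 9.27 CPM per kb (SD, n = 3), above Id3 at 57.3 ± 9.13, and in KO LCA50 the sixth, at 12.9 ± 2.35. Id3 and Satb1 exchanged places between guides: in WT control Id3 stood at 57.3 and Satb1 at 29.2 ± 1.33 CPM per kb, and in KO control Id3 stood at 33 ± 3.87 and Satb1 at 36.1 ± 0.814, which is within the spread of Id3.

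**Figure D1:**
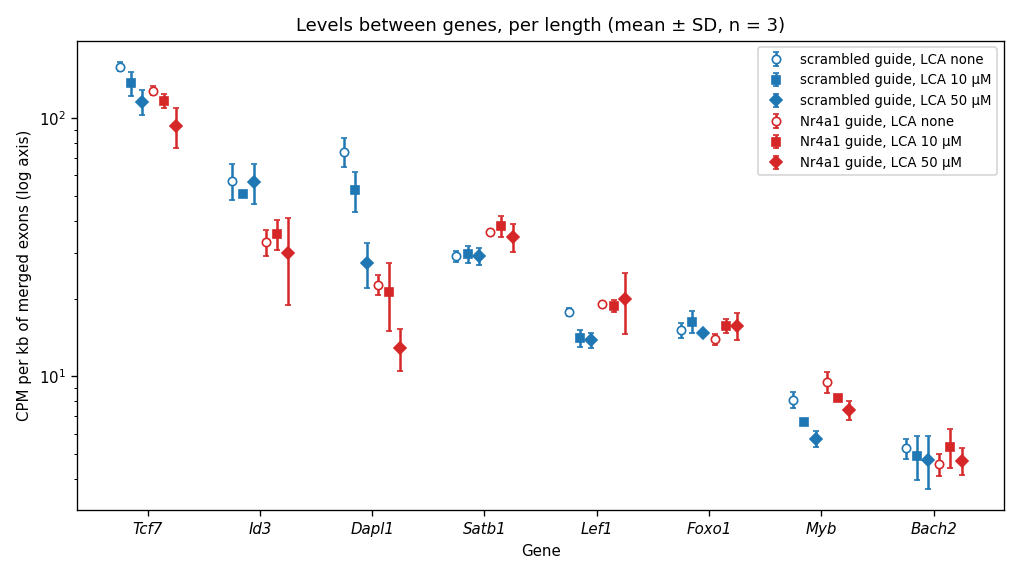
Level per length of each gene (vertical log axis, CPM per kb of merged exons) for the 6 groups, with points at the mean and bars of 1 SD over 3 libraries, ordered by mean level over all libraries. Tcf7 lies above the other genes in every group, and Dapl1 spans from 74.3 in WT control to 12.9 in KO LCA50.

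Below, levels are CPM on TMM-scaled library sizes and changes are log2 fold changes ± SE from the quasi-likelihood test of edgeR, each group having 3 libraries. Genes are called, and words such as rose or fell are used, where the p-value, adjusted by Benjamini-Hochberg over the 11651 genes of that comparison, was below 0.05. The median change over all genes was within 0.01 of 0 on the log2 scale in each comparison. In RNA from bulk cells, fewer cells of a type and less RNA per cell cannot be told apart.

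At 50 µM LCA, 4 of the 8 genes fell in WT cells (Dapl1, Myb, Tcf7 and Lef1). Over all genes tested, 8.58% were called in that comparison, and 4.93% were called lower. In KO cells 3 of the 8 fell (Dapl1, Tcf7 and Myb), where 6.35% of all genes were called and 3.42% were called lower. The median change of the 8 was -0.26 in WT and -0.09 in KO, beside 0.01 and 0.00 over all genes. With libraries of both guides averaged, Dapl1, Tcf7 and Myb were called, where 16.5% of all genes were. Lef1 had -0.15 there (adjusted p = 0.212), but was called without KO LCA50 replicate 1 (-0.27, adjusted p = 0.00123), without both this library and WT LCA50 replicate 3 (-0.29) and with library background as a covariate (-0.28, adjusted p = 0.00372).

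Dapl1 gave the largest change with LCA among the 8. Its levels were 57.6, 47.7 and 45.9 CPM in WT control replicates 1, 2 and 3, 29.4, 35.5 and 42.0 in WT LCA10, and 22.7, 17.3 and 15.8 in WT LCA50. The 3 WT groups did not overlap, each dose lying below the one before. In KO cells Dapl1 stood at 13.8, 15.8 and 16.4 CPM in control, 18.8, 14.4 and 10.2 in LCA10, and 6.91, 9.51 and 9.82 in LCA50. Untreated KO libraries thus lay in or just below the range of WT LCA50, KO LCA10 surrounded KO control, and KO LCA50 lay below both. In WT cells Dapl1 fell at 50 µM by 1.44 ± 0.19 on the log2 scale (adjusted p = 3.09e-06), a 2.71-fold lower level, and 67 of the 11651 genes had a lower change. It also fell between 10 and 50 µM (-0.94 ± 0.19, adjusted p = 0.00370), where 2.27% of genes were called and no other of the 8 was, but without WT LCA10 replicate 3 or WT LCA50 replicate 3 the adjusted p was 0.0553 and 0.0519, and with library background as a covariate 0.115. In KO cells it fell at 50 µM by 0.80 ± 0.22 (adjusted p = 0.0228), a call lost without KO LCA50 replicate 1 (-0.67, adjusted p = 0.124), KO control replicate 2 (0.073) or KO control replicate 3 (0.100), or where the model held those 2 groups alone (0.0682). Dapl1 rested on 29 to 279 counts per library, the fewest of the 8.

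Myb, the gene of the stem-like state factor, stood at 66.3, 75.1 and 75.9 CPM in WT control, 58.0, 60.1 and 60.0 in WT LCA10, and 50.2, 55.0 and 48.3 in WT LCA50. In KO it stood at 81.6, 79.2 and 93.8 CPM in control, 72.2, 73.2 and 75.7 in LCA10, and 59.6, 68.5 and 69.7 in LCA50. In both series the 3 doses did not overlap, and at each dose the KO libraries lay above the WT libraries. At 50 µM Myb fell by 0.50 ± 0.11 in WT (adjusted p = 0.00213) and by 0.36 ± 0.10 in KO (adjusted p = 0.0275). The KO call was lost without KO LCA50 replicate 1 (-0.30, adjusted p = 0.166), without KO control replicate 3 (adjusted p = 0.200) and where the model held those 2 groups alone (adjusted p = 0.0824). Between 10 and 50 µM the change was not called in either (WT -0.21 ± 0.11, adjusted p = 0.346, and KO -0.16 ± 0.10, adjusted p = 0.588).

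Tcf7 stood at 435, 411 and 402 CPM in WT control, 384, 315 and 376 in WT LCA10, and 343, 288 and 281 in WT LCA50. In KO cells it stood at 332, 324 and 352 CPM in control, 291, 301 and 328 in LCA10, and 194, 268 and 270 in LCA50. WT control was the highest group, apart from all others, and KO LCA50 the lowest, with its replicate 1 below the rest. KO LCA10 (307 ± 19.4) and WT LCA50 (304 ± 33.7) differed by less than the SD of either. The change at 50 µM was -0.45 ± 0.10 in WT (adjusted p = 0.00255) and -0.46 ± 0.10 in KO (adjusted p = 0.00321), a level 1.37-fold lower in both. Their difference, KO minus WT, was -0.01 ± 0.14, with a 95% interval from -0.28 to 0.27. Without KO LCA50 replicate 1 the KO change was -0.32 (adjusted p = 0.0191) and the difference 0.14 (adjusted p = 0.740).

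Lef1, the gene of the factor that shares TCF-1's motif, was called in WT and not in KO. It stood at 151, 162 and 154 CPM in WT control, 124, 114 and 133 in WT LCA10, and 114, 119 and 131 in WT LCA50. Both LCA groups lay below every WT control library and overlapped each other. In KO it stood at 164, 165 and 171 CPM in control, 175, 158 and 160 in LCA10, and 228, 143 and 153 in LCA50, with replicate 1 far above the other 2 libraries of its group. In WT, Lef1 fell at 50 µM by 0.36 ± 0.11 (adjusted p = 0.0416), and this call was lost without any 1 of the 6 libraries (changes from -0.42 to -0.32, adjusted p from 0.0522 to 0.123). In KO the change was 0.06 ± 0.11 (adjusted p = 0.815), or -0.17 without KO LCA50 replicate 1.

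The other 4 genes were not called at 50 µM in either. Id3 had changes of -0.02 ± 0.18 in WT and -0.13 ± 0.20 in KO, with intervals from -0.41 to 0.37 and from -0.55 to 0.28. Satb1 had 0.00 ± 0.08 (-0.16 to 0.16) and -0.05 ± 0.08 (-0.22 to 0.11). Bach2 had -0.15 ± 0.15 (-0.46 to 0.16) and 0.05 ± 0.15 (-0.27 to 0.36), and Foxo1 had -0.05 ± 0.09 (-0.23 to 0.14) and 0.18 ± 0.09 (-0.01 to 0.37). In WT the intervals of Satb1, Foxo1 and Id3 leave out the values of Tcf7 (-0.45) and Myb (-0.50), and that of Bach2 holds the value of Tcf7.

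**Figure D2:**
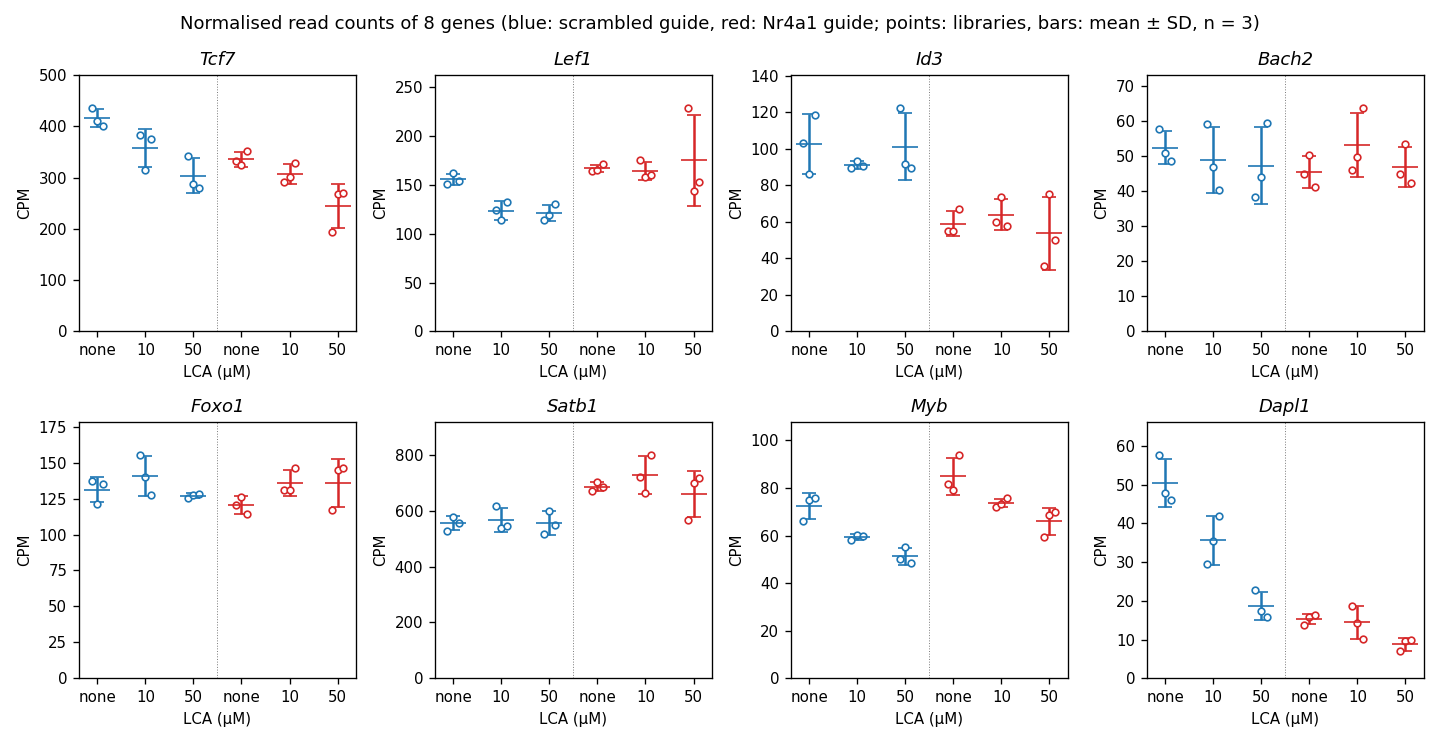
Normalised read counts (CPM, vertical axes from 0) of the 8 genes by LCA dose in µM, in WT (blue) and KO (red). Open points are libraries, and bars give the mean and 1 SD of 3 libraries. Dapl1 and Myb step down with dose in WT without overlap, and all 9 WT libraries of Id3 lie above all 9 KO libraries.

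At 10 µM none of the 8 genes was called in WT or in KO, by edgeR or by DESeq2, where 0.386% and 0.326% of all genes were called by edgeR. In WT, 4 had an unadjusted p under 0.05 and did not overlap with control, all lower: Dapl1 (-0.50 ± 0.17, adjusted p = 0.342), Lef1 (-0.33 ± 0.11, 0.309), Myb (-0.29 ± 0.10, 0.391) and Tcf7 (-0.22 ± 0.10, 0.586). Of all genes, 7.07% were lower without overlap. These are the genes that were called at 50 µM, against the same WT control libraries. In KO none of the 8 had an unadjusted p under 0.05. There Myb was lower without overlap (-0.20 ± 0.10, adjusted p = 0.648) and Foxo1 higher (0.18 ± 0.09, adjusted p = 0.682), where 7.24% and 7.75% of all genes were lower and higher without overlap. Dapl1 in KO had -0.10 ± 0.21. Between 10 and 50 µM in KO none of the 8 was called by either tool, where 1.38% of genes were by edgeR, and Tcf7 (-0.33 ± 0.10, adjusted p = 0.0971) and Dapl1 (-0.70 ± 0.23, adjusted p = 0.129) had an unadjusted p under 0.05.

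Library background was higher in WT LCA50 (122 to 224 CPM) than in WT control (50.4 to 108 CPM), while WT LCA10 (70.6 to 91.3 CPM) lay within the range of WT control. With the log2 of the background as a covariate, Dapl1 was still called at 50 µM in WT (-1.30, adjusted p = 0.000719). Lef1 was also called, with a larger change (-0.65, adjusted p = 0.000286) than without the covariate (-0.36). Tcf7 (-0.31, adjusted p = 0.127) and Myb (-0.42, adjusted p = 0.076) were not called. With WT LCA50 replicate 3 and KO LCA50 replicate 1 left out, all 4 remained called in WT, and in KO Tcf7 alone did. CD8 T cell markers had 2 of 7 tested genes called lower in WT LCA50 and 1 of 7 in KO LCA50, where 4.93% and 3.42% of all genes were. Myeloid markers had 3 of 8 called lower in WT LCA50. Their summed CPM of 63.7 to 73.5 there lay within the range of WT control (57.2 to 83.5). The part of the cells with these markers in these results was not tested.

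The guide was compared next. Averaged over the 3 doses, 6 of the 8 genes differed between KO and WT, 3 lower (Dapl1, Id3 and Tcf7) and 3 higher (Satb1, Lef1 and Myb), where 5.15% of all genes were called, 1.79% lower and 3.36% higher. The same 6 were called under each alternative tried and without each library in turn.

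Dapl1 had the largest difference, -1.37 ± 0.12 (adjusted p = 2.00e-10), a 2.58-fold lower level in KO, and 25 of 11651 genes had a lower value. It was lower at each dose, without overlap: by 1.71 ± 0.19 in control cells (adjusted p = 4.22e-07, the third smallest p of all genes there), by 1.31 ± 0.19 at 10 µM (adjusted p = 0.000132) and by 1.08 ± 0.22 at 50 µM (adjusted p = 0.00409). Leaving out single libraries moved the value in control cells between -1.77 and -1.61, called each time. At 50 µM the call was lost where the model held those 2 groups alone.

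Id3, the E protein inhibitor, stood at 103, 86.1 and 119 CPM in WT control, 89.5, 93.6 and 90.6 in WT LCA10, and 122, 92.0 and 89.4 in WT LCA50. In KO it stood at 55.1, 55.1 and 67.1 CPM in control, 60.1, 73.7 and 57.9 in LCA10, and 36.0, 75.1 and 50.1 in LCA50. Every KO library lay below every WT library at every dose, and the KO LCA50 libraries spread the most. Averaged over doses the difference was -0.74 ± 0.11 (adjusted p = 0.000249). Within doses it was called at 50 µM (-0.90 ± 0.19, adjusted p = 0.0176) and not in control (-0.79 ± 0.19, adjusted p = 0.0714) or at 10 µM (-0.52 ± 0.19, adjusted p = 0.392). The call at 50 µM was lost without WT LCA50 replicate 1 (adjusted p = 0.0601) or KO LCA50 replicate 3 (adjusted p = 0.0870).

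Tcf7 was the third gene lower in KO, by 0.28 ± 0.06 averaged over doses (adjusted p = 0.00120). Its differences of -0.31 ± 0.10 in control, -0.22 ± 0.10 at 10 µM and -0.31 ± 0.10 at 50 µM were not called singly (adjusted p = 0.188, 0.473 and 0.0945). Tcf7 and Dapl1 were thus lower both with 50 µM LCA and with the Nr4a1 guide, and KO LCA50 was the lowest of the 6 groups for both.

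Satb1, the chromatin organiser, was higher in KO, by 0.31 ± 0.05 averaged over doses (adjusted p = 2.01e-05). It stood at 528, 579 and 557 CPM in WT control, 616, 538 and 546 in WT LCA10, and 517, 601 and 548 in WT LCA50. In KO it stood at 672, 703 and 685 CPM in control, 719, 663 and 799.5 in LCA10, and 566, 700 and 716 in LCA50. All KO libraries but KO LCA50 replicate 1 lay above all 9 WT libraries. Within doses it was called at 10 µM (0.36 ± 0.08, adjusted p = 0.0160), a call lost without WT LCA10 replicate 2, WT LCA10 replicate 3, KO LCA10 replicate 1 or KO LCA10 replicate 3. In control the difference was 0.31 ± 0.08 (adjusted p = 0.0671) and at 50 µM 0.25 ± 0.08 (adjusted p = 0.0984). Without KO LCA50 replicate 1 the difference at 50 µM was called (0.36, adjusted p = 0.00184).

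Lef1 and Myb were the other genes higher in KO. Lef1 differed by 0.35 ± 0.06 averaged over doses (adjusted p = 0.000529). Its difference was 0.10 ± 0.11 in control (adjusted p = 0.909), 0.41 ± 0.11 at 10 µM (adjusted p = 0.0908) and 0.52 ± 0.11 at 50 µM (adjusted p = 0.00814). Without KO LCA50 replicate 1 the difference at 50 µM was 0.30 (adjusted p = 0.0612). Myb differed by 0.30 ± 0.06 averaged over doses (adjusted p = 0.000940), and by 0.23 ± 0.10, 0.31 ± 0.10 and 0.37 ± 0.11 in control, at 10 and at 50 µM, none called singly (adjusted p = 0.488, 0.237 and 0.0663). Myb thus fell with LCA and was higher with the Nr4a1 guide, unlike Tcf7 and Dapl1.

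**Figure D3:**
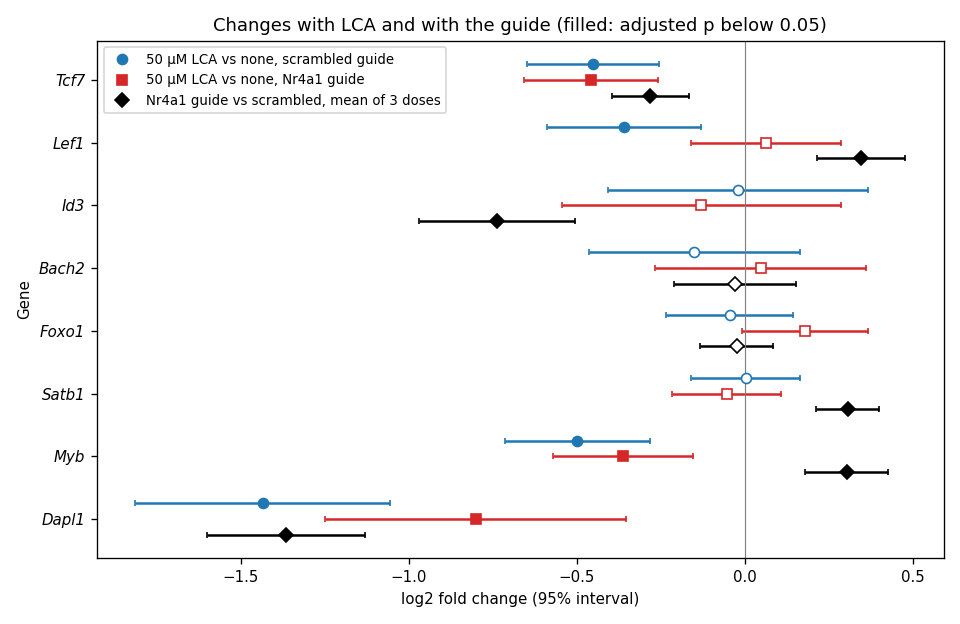
Log2 fold changes (horizontal axis, with 95% intervals) of the 8 genes at 50 µM LCA in WT (blue circles) and KO (red squares) and for KO against WT averaged over doses (black diamonds), filled where called. Dapl1 and Tcf7 lie left of 0 in all 3 comparisons, Myb lies left for LCA and right for the guide, and Id3 and Satb1 are called for the guide alone.

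Within a dose, 1 of the 8 genes was called in control cells (Dapl1), where 0.627% of all genes were, 2 at 10 µM (Dapl1 and Satb1), where 0.661% were, and 3 at 50 µM (Dapl1, Id3 and Lef1), where 1.94% were. The counts moved with the setting, and the share of all genes called under the other settings is not reported here. In control cells DESeq2 called Dapl1, Id3 and Satb1, and a model of those 2 groups alone called these and Tcf7. At 50 µM the model of the 2 groups alone called none, while DESeq2 called Dapl1, Id3, Lef1 and Myb. Without KO LCA50 replicate 1 the genes called there were Dapl1 (-0.94, adjusted p = 0.0160), Id3 (-0.69, adjusted p = 0.00770), Satb1 and Myb (0.44, adjusted p = 0.0255), and Lef1 was not.

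Markers of other cells also differed between the guides. Summed CPM of 11 myeloid markers ran from 45.5 to 83.5 in the WT libraries and from 19.7 to 33.8 in the KO libraries, without overlap. Averaged over doses, 4 of 8 tested ones were called lower in KO, where 1.79% of all genes were. Lyz2 was the most abundant, at 20.3 CPM over all libraries. Summed CPM of 10 red cell and platelet markers ran from 31.6 to 57.3 in WT control and from 0.943 to 6.25 in KO control, with 1 of 3 tested called lower there and averaged over doses. They overlapped at 10 µM, at 4.49 to 13.7 CPM in WT and 5.36 to 22.6 in KO, and at 50 µM ran from 12.4 to 47.4 in WT and from 4.75 to 7.87 in KO. Of 7 CD8 T cell markers tested, 2 were called lower in KO averaged over doses and 1 in control cells, and at 50 µM 1 was called lower and 1 higher. No marker of these lists was at 0 in all libraries, though Camp was at 0 in some. The part of other cells in the guide differences was not tested.

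**Figure D4:**
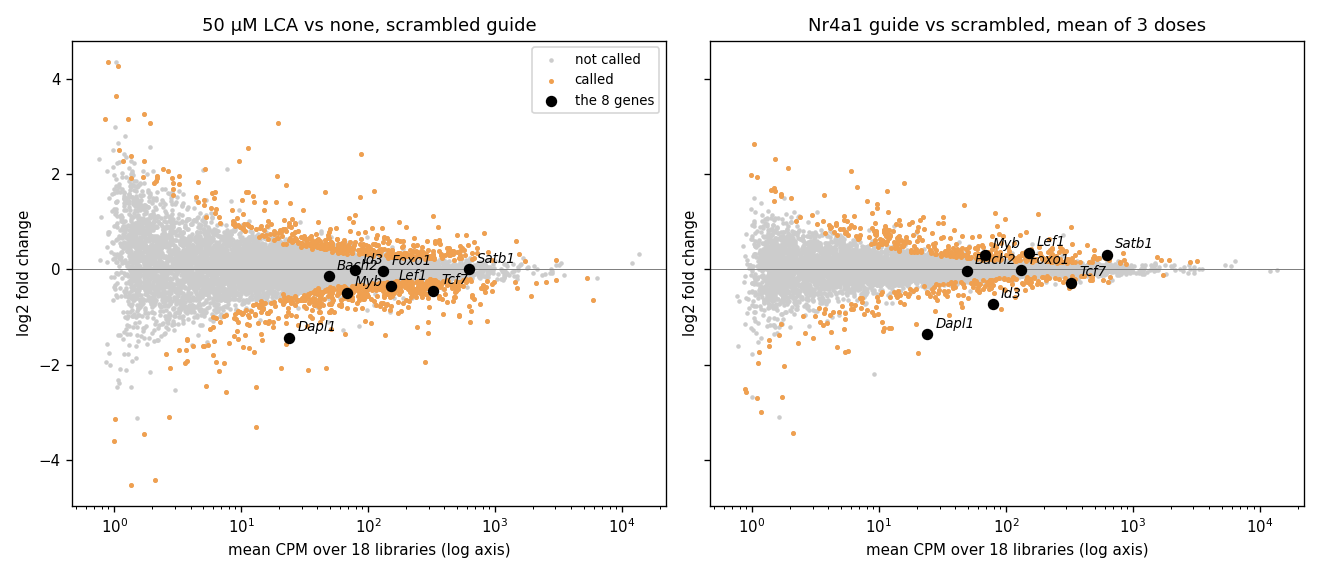
Log2 fold change against mean CPM over 18 libraries (log axis) for all 11651 tested genes, at 50 µM LCA in WT (left) and for KO against WT averaged over doses (right), with called genes in orange and the 8 genes in black. Below Dapl1 lie 67 genes on the left and 25 on the right, while Bach2 and Foxo1 lie near 0 in both panels.

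Bach2 and Foxo1 were not called in any of the 13 comparisons. Bach2 ran from 38.4 to 63.6 CPM over the 18 libraries, with group means between 45.4 ± 4.49 in KO control and 53.1 ± 9.23 in KO LCA10. Foxo1 ran from 114 to 155 CPM, with group means between 120 ± 6.05 in KO control and 141 ± 13.9 in WT LCA10. In the order of group means, the libraries of neighbouring groups overlapped for both genes. For KO against WT averaged over doses, Bach2 had -0.03 ± 0.09 (95% interval -0.21 to 0.15) and Foxo1 -0.02 ± 0.05 (-0.13 to 0.08). The antisense gene Bach2os shares 537 bases of exon with Bach2 and is listed in the same table, and the sources used here do not say whether reads were assigned by strand.

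Whether the guide changed the response to LCA was tested as the difference of the 2 responses. None of the 8 genes was called at either dose by edgeR or DESeq2, and 0% of all genes were called by edgeR. With library background as a covariate in edgeR, Lef1 was called at 50 µM (0.74, adjusted p = 0.0303). At 50 µM, Lef1 (0.42 ± 0.16, KO minus WT, 95% interval 0.10 to 0.74, adjusted p = 0.765) and Dapl1 (0.63 ± 0.29, 0.04 to 1.23, adjusted p = 0.793) had an unadjusted p under 0.05, at 0.0116 and 0.0366. At 10 µM none had. Dapl1 had the lower start in KO, 15.4 ± 1.35 CPM in control against 50.4 ± 6.30 in WT. Without KO LCA50 replicate 1 the Lef1 difference was 0.20 (adjusted p = 0.628), and without each other library of these 4 groups it lay between 0.38 and 0.55, not called. Id3, Bach2, Foxo1, Satb1 and Myb had unadjusted p-values of 0.0965 or more.

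Other genes of the naive and memory states were read from a list of 16, of which 15 were tested. At 50 µM LCA, 8 fell and 1 rose in WT, and 7 fell and 1 rose in KO, with medians of -0.29 and -0.25. Over all genes, 8.58% were called in WT, 4.93% lower, and 6.35% in KO, 3.42% lower, with medians of 0.01 and 0.00. Il7r, the interleukin 7 receptor chain that supports naive and memory survival, fell by 0.70 ± 0.12 in WT (adjusted p = 0.000174) and by 0.50 ± 0.11 in KO. Klf2, a factor that keeps T cells recirculating, fell by 0.74 ± 0.15 in WT, and Cd27, a costimulatory receptor, by 0.78 ± 0.17 in KO. Mean Klf2 in KO was 43.8 CPM in control and 30.2 in LCA50. Mean Cd27 in WT was 194 CPM in control and 113 in LCA50, beside 187 and 108 in KO. Bcl2, a survival gene, rose by 0.49 ± 0.08 and 0.39 ± 0.08. With the guide, 4 were higher and 3 lower, where 3.36% and 1.79% of all genes were. Il7r, at 62.8 ± 6.65 CPM in WT control and 131 ± 10.6 in KO control, was higher in KO by 1.19 ± 0.07 averaged over doses (adjusted p = 4.38e-15), while Klf2 was lower by 0.71 ± 0.09.

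FOXO1 targets and regulators, 17 genes that share members such as Klf2, Il7r, S1pr1 and Ccr7 with the list above, had 7 lower and 1 higher at 50 µM in WT and 5 lower and 2 higher in KO, beside the uncalled Foxo1. Medians were -0.15 and -0.11, beside 0.01 and 0.00 over all genes, of which 4.93% and 3.42% were called lower. Pik3ip1, an inhibitor of PI3 kinase, fell by 1.11 ± 0.15 in WT (adjusted p = 5.20e-06) and by 1.01 ± 0.15 in KO. Sgk1, a kinase that phosphorylates FOXO factors, rose by 1.40 ± 0.17 in WT (adjusted p = 6.49e-07) and by 1.24 ± 0.16 in KO. The kinase gene Akt2 rose by 0.28 ± 0.08 in KO, from a mean of 131 CPM to 159, beside 130 and 153 in WT. With the guide 2 were higher and 1 lower, where 3.36% and 1.79% of all genes were.

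Transcription factors of the effector and exhausted states moved in both directions with LCA. Of 16 tested, 5 rose and 4 fell at 50 µM in WT, and 4 rose and 2 fell in KO, with medians of 0.07 and 0.00. Of all genes, 8.58% were called in WT, 4.93% lower, and 6.35% in KO, 3.42% lower. Eomes, a T-box factor of effector and memory cells, rose by 0.65 ± 0.10 in WT and 0.52 ± 0.10 in KO, and Nfil3 by 0.59 ± 0.09 and 0.40 ± 0.09. Bhlhe40 rose by 0.31 ± 0.08 and 0.34 ± 0.08. Stat4, which carries interleukin 12 signals, fell by 0.53 ± 0.08 and 0.42 ± 0.08, and Tbx21, which encodes T-bet, by 0.59 ± 0.15 in KO. Mean Tbx21 in WT was 154 CPM in control and 93.2 in LCA50, beside 189 and 125 in KO. Hif1a fell by 0.48 ± 0.07 in WT, and Batf by 0.62 ± 0.15. With the guide, 7 of the 16 were higher in KO, where 3.36% of all genes were, with a median of 0.13. Id2, a paralog of Id3, stood at 332, 371 and 375 CPM (means of control, LCA10 and LCA50) in WT and 431, 530 and 573 in KO. It was higher in KO by 0.50 ± 0.05 (adjusted p = 9.60e-09) and rose at 50 µM in KO by 0.41 ± 0.08, opposite to Id3 between the guides.

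The partners of the 8 gene products were read from 19 tested genes. At 50 µM, 1 of the 19 was called in WT and 2 in KO, where 8.58% and 6.35% of all genes were. Of these corepressors, coactivators, E proteins and small Maf proteins, Tle1, a Groucho-type corepressor, rose at 50 µM in WT (0.53 ± 0.17, adjusted p = 0.0475) and in KO (0.62 ± 0.17, adjusted p = 0.0211), and Tle3 rose in KO (0.57 ± 0.12, adjusted p = 0.00227). Of 9 tested paralogs of the 8 genes, 1 was called at 50 µM in WT and 1 in KO. Dap fell in WT by 0.36 ± 0.09 (adjusted p = 0.00807), and Id2 rose in KO. For the guide averaged over doses 1 of the 9, Id2, was called, where 5.15% of all genes were.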

How the data were processed

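The deposited values were raw read counts per gene symbol in 18 libraries, with no normalization. Per the submitters' processing notes, STAR, HOMER, DESeq2 and the builds GRCm38 and mm10 were used, with no version or role. The sources used here do not say how reads were assigned to genes, or whether by strand. Per the labels' protocols, RNA was isolated with a Qiagen kit and libraries made by an ultra-low input method. The 8 genes and the lists read beside them were chosen with earlier results of these data known.

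From the counts, edgeR 4.0.16 (R 4.3.3) fitted 1 mean for each of 6 groups over all 18 libraries after filterByExpr (11651 of 24537 genes) and TMM scaling, with a robust quasi-likelihood F test for 13 comparisons. Within each comparison the Benjamini-Hochberg method adjusted the p-values, and genes below 0.05 were called. The common dispersion was 0.00968, a coefficient of variation of 0.0984 beyond counting error, and counts of 29 to 4226 stood behind the values of the 8 genes. An SE is the size of the log2 fold change divided by the root of its F statistic, and intervals are 95%. Log2 CPM used a prior count of 2. Levels between genes were divided by merged exon length. Pairs of libraries in a group differed by 2.41 to 8.19 times counting error (chi-square per degree of freedom), so none was a copy. The code was tested on simulated data. From each of 5 lists, up to 3 called genes with the smallest p in each direction at 50 µM in WT and in KO were named, and for each of the 8 genes the 3 genes with the highest Pearson r of log2 CPM. Some genes that this rule names are not reported here. Alternatives were DESeq2 1.42.0, its size factors in edgeR, no filter, fitting just the groups compared, a block for the replicate number, library background as a covariate, both LCA50 libraries of highest background left out, CPM on unscaled totals, and each library left out.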

Additional observations from a re-analysis of the deposited data

How the results depend on the processing

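With the replicate number as a block, the number of the 8 genes called was the same in all 13 comparisons, for example 4 at 50 µM in WT, 3 in KO and 6 for the guide averaged over doses. No pairing by number was seen: deviations of libraries with the same number correlated from -0.279 to 0.162. Of the 18 libraries, 4 correlated best with one of their own number. The labels do not say whether libraries with the same number share a mouse or culture.

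Of the 8 genes, the number called changed as follows under other settings. With library background as a covariate it was 2 at 50 µM against control in WT (4 otherwise), 1 at 10 µM in WT (0 otherwise), 0 for WT LCA50 against WT LCA10 (1 otherwise), 3 for KO control against WT control (1 otherwise), 4 for KO LCA10 against WT LCA10 (2 otherwise) and 1 for the difference of the 50 µM responses (0 otherwise), where Lef1 had 0.74 (adjusted p = 0.0303), and 4 for KO LCA50 against WT LCA50 (3 otherwise) and for 50 µM averaged over the guides (3 otherwise). With both LCA50 libraries of highest background left out it was 1 at 10 µM in WT, 1 at 50 µM in KO (3 otherwise), 4 for KO control against WT control, 4 for KO LCA10 against WT LCA10 and 4 for 50 µM averaged over the guides. In a fit of the 2 groups alone it was 1, 1, 4 and 4 in the first 4 of these, and 0 for KO LCA50 against WT LCA50. Without the filter it was 1 for KO LCA50 against KO LCA10 (0 otherwise), 4 for KO control against WT control, 4 for KO LCA10 against WT LCA10 and 5 for KO LCA50 against WT LCA50. DESeq2 called 3 for KO control against WT control and 4 for KO LCA50 against WT LCA50. Leaving out 1 library gave 0 to 1 for WT LCA50 against WT LCA10, 3 each time at 50 µM in WT, 1 to 3 at 50 µM in KO, 2 to 4 for KO LCA50 against WT LCA50, 3 to 4 for 50 µM averaged over the guides, 0 to 1 for KO LCA50 against KO LCA10 and 1 to 2 for KO LCA10 against WT LCA10. The share of all genes called under each of these settings is not reported here, so these counts cannot be set beside it. The cause of these changes was not tested.

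Values that changed sign were all uncalled. At 50 µM in WT, Satb1 was -0.022 without the filter, Id3 was 0.44 and Foxo1 0.088 with the covariate, and Id3 was 0.060 with both libraries left out. With both left out, Lef1 was -0.17, Id3 0.079 and Satb1 0.044 at 50 µM in KO, the Tcf7 response difference 0.078, and the guide value averaged over doses 0.046 for Bach2 and 0.010 for Foxo1. Lef1 in KO control against WT control was -0.015 with the covariate, and the Tcf7 response difference 0.012 without the filter. Leaving out 1 library gave ranges at 50 µM in WT of -0.18 to 0.090 for Id3 and -0.066 to 0.049 for Satb1. At 50 µM in KO they were -0.17 to 0.18 for Lef1, -0.46 to 0.079 for Id3, -0.063 to 0.12 for Bach2 and -0.12 to 0.044 for Satb1. They were -0.33 to 0.11 for Dapl1 at 10 µM in KO, -0.078 to 0.14 for the Tcf7 response difference, and -0.080 to 0.036 for Bach2 and -0.046 to 0.0094 for Foxo1 between the guides averaged over doses. Group mean CPM on unscaled totals moved by less than 1 SD. Dapl1, with as few as 29 counts in a library, had the fewest counts of the 8 and so the least precision from depth.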

Other observations

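The patterns of other genes over the 18 libraries were compared with those of the 8 genes by Pearson r of log2 CPM, among 9373 genes with a mean of at least 5 CPM. These are descriptions over libraries that share groups, depth and processing, with no test. Nearest to Dapl1 were Cd48 (r = 0.912), Cd5 (0.909) and Cd6 (0.898), which encode surface receptors of T cells. Mean Cd5 was 83.7 CPM in WT control, 53.2 in WT LCA50, 61.0 in KO control and 40.2 in KO LCA50, so that the highest and the lowest group were the same as for Dapl1. Nearest to Tcf7 were Hvcn1 (0.938), Itih5 (0.926) and Tctn1 (0.924). Itih5 went from 28.7 CPM in WT control to 1.92 in KO LCA50, a wider span than that of Tcf7. Nearest to Myb were Fgl2 (0.950), Gsn (0.936) and Themis (0.928), the last a gene of T cell receptor signalling. Themis stood at 283, 227 and 199 CPM in WT control, LCA10 and LCA50 and at 369, 312 and 274 in KO, lower with dose and higher with the Nr4a1 guide, as Myb was.

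Nearest to Id3 were Ubash3b (0.913), Igflr1 (0.908) and Dgkz (0.891). Ubash3b and Dgkz encode a phosphatase and a lipid kinase that restrain T cell receptor signalling. Nearest to Satb1 were Celf2 (0.881), Pak6 (0.880) and Plekha2 (0.880), and nearest to Lef1 Tnfrsf4 (0.862), Ccng1 (0.854) and Hif1a (0.853). Bach2 (Med23, 0.780, Actr5, 0.740, and Utrn, 0.703) and Foxo1 (Apbb1ip, 0.804, Tmem55a, 0.771, and Cnih1, 0.759) had lower highest values.

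Among the 8 genes themselves, r of log2 CPM over the 18 libraries was 0.838 for Tcf7 and Dapl1, 0.763 for Id3 and Dapl1, 0.628 for Satb1 and Myb and -0.766 for Lef1 and Id3. After subtraction of group means, r was -0.754 for Lef1 and Id3, -0.662 for Lef1 and Tcf7 and 0.342 for Tcf7 and Dapl1. KO LCA50 replicate 1, with the highest Lef1 and the lowest Id3 and Tcf7 of its group, weighs on the values for Lef1.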
